A study of Mus musculus with 24 samples.

Results

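The 10 genes described here export, take up, esterify or move cholesterol, or are textbook targets of the liver X receptors (LXR). They are Abcg5, Abcg8, Abca1, Abcg1, Scarb1, Lcat, Npc1, Soat2, Mylip and Lpcat3. They were found by exact match of the gene name that the array design gives each probe, which returned 17 of 56605 probes. Of these, 16 were bright enough to be tested among 30003 probes. The remaining probe, 1 of 4 for Npc1, was not well above background on any of the 24 arrays.

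The livers came from male mice (C57bl/6J) that were the third generation (F3) of 2 lineages, and each mouse had 1 array. The oleic lineage received high oleic sunflower oil in the growing diet and the EPA lineage received fish oil rich in eicosapentaenoic acid, an omega 3 fatty acid. The reference group (n = 9) came from the oleic lineage and ate a low-fat diet. The HFoleic group (n = 8, oleic lineage) and the HFepa group (n = 7, EPA lineage) ate a high-fat, high-sucrose obesogenic diet. All mice were killed while fasting. EPA lineage mice on the low-fat diet were not analysed here, so in HFepa against reference the lineage and the diet cannot be told apart. HFoleic against reference reads the diet within the oleic lineage, and HFepa against HFoleic reads the lineage under the obesogenic diet.

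Cholesterol that a hepatocyte does not need leaves by several routes. ABCG5 and ABCG8 form a heterodimer in the canalicular membrane that secretes sterols into bile, and ABCA1 and ABCG1 load cholesterol onto apolipoprotein A-I and HDL. When oxysterols accumulate they bind LXR, which acts with the retinoid X receptor to raise transcription of these transporters, of the ubiquitin ligase MYLIP, and of the phospholipid-remodelling enzyme LPCAT3. When sterols are scarce in the endoplasmic reticulum, SREBP2 instead raises synthesis genes such as Sqle.

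Between 28804 and 34432 probes per array were well above background, and no spot was saturated. All values below are log2 normalized signals, and the number of arrays limits their precision. A gene is read from its brightest tested probe, and levels of different probes are not compared. The 6 hepatocyte markers averaged 16.67 to 16.91 in every mouse. Among them Cps1 was lower in HFoleic than in reference mice (log2 difference -0.89, limma adjusted p = 0.00166) and Asgr1 higher by 0.21 (limma adjusted p = 0.0196). The stellate cell marker Lrat was also higher in HFoleic mice by 0.56 (limma adjusted p = 0.00150) and the bile duct marker Sox9 lower (-0.65, limma adjusted p = 0.0279). Of the bile duct, fat and exocrine pancreas markers, 3 of 4, 3 of 4 and 2 of 4 were tested, and those of fat averaged 6.48 to 9.24 per mouse. Epcam (bile duct), Adipoq (fat) and Cpa1 and Pnlip (pancreas) did not pass the filter on dim probes. The 8 Kupffer cell and macrophage markers were all tested and averaged 10.05 to 11.32. Macrophages also use Abca1 and Abcg1, and in whole liver fewer cells of a type and less RNA per cell cannot be told apart.

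Reference mouse 5 stood apart. Its mean correlation with the other reference arrays was 0.9774, against 0.9871 to 0.9937 for the other 23 mice within their groups. Its stellate cell markers averaged 10.23 (8.80 to 9.63 in the others) and its bile duct markers 8.07 (6.36 to 7.09 in the others). The part of these marker levels, and of the marker differences above, in the results was not tested. Abcg5, Abcg8, Abcg1 and Lpcat3 were higher in it than in every other reference mouse, and Lcat and Npc1 were lower, so results are given with and without it where it moves them.

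Of the genes that export sterols into bile, Abcg8 was higher on average in HFoleic than in reference mice, and whether it passed the test depended on reference mouse 5. Abcg8 lay at 11.29, 11.81 and 12.64 (lowest, median and highest) in reference mice, at 11.91, 12.16 and 12.42 in HFoleic mice and at 11.57, 11.99 and 12.43 in HFepa mice. All 8 HFoleic mice were above the reference mean, but none was above reference mouse 5. The HFoleic mean exceeded the reference mean by 0.33 (SE 0.141, 1.26-fold), which did not pass the test (limma, Benjamini-Hochberg adjusted p = 0.168; unadjusted p = 0.0275). Without reference mouse 5 the difference was 0.435 (SE 0.115) and passed (limma adjusted p = 0.0226, where 7.2% of all tested probes were called), with 5 of 8 HFoleic mice above all of the other 8 reference mice. Leaving out any other mouse did not bring it past the threshold, and over the alternatives of processing and test the adjusted p lay between 0.0933 and 0.297. In HFepa mice the difference from reference was 0.15 with all mice (limma adjusted p = 0.718) and 0.258 without that mouse (limma adjusted p = 0.382). Probe A_66_P114089 read this gene at chr17:85099609-85099668 (plus strand, mouse build mm9).

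Its partner Abcg5 varied more. Levels were 12.73, 12.85 and 14.39 in reference mice, 12.94, 13.25 and 13.62 in HFoleic mice and 12.69, 12.99 and 13.52 in HFepa mice. The groups overlapped across nearly their whole ranges, and the highest level of all belonged to reference mouse 5. HFoleic differed from reference by 0.16 (SE 0.176, 95% interval -0.21 to 0.52; limma adjusted p = 0.680), with 5 of 8 mice above the reference mean. Without reference mouse 5 the difference was 0.320 (limma adjusted p = 0.0967). HFepa differed from reference by -0.05 (95% interval -0.43 to 0.33), which turned to 0.115 (-0.132 to 0.362) without that mouse, and from HFoleic by -0.20 (95% interval -0.59 to 0.18).

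Abcg5 and Abcg8 lie head to head on mouse chromosome 17, and the stretch between them is shown here. Whether it has a part in their joint variation, given below, was not tested. In the RefSeq promoter table (GRCm38.p6), the Abcg5 start site is at 84683011 on the minus strand and the nearest Abcg8 start site is at 84683121 on the plus strand. The 109 bases between them, chr17:84683012-84683120 on the plus strand, are printed with each copy of the GATA-type letters AGATAA, on either strand, in capitals.
Abcg5 to Abcg8: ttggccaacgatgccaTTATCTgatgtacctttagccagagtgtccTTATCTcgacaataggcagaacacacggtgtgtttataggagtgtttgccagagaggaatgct
The stretch holds 2 copies, and the 300-base window around the Abcg8 start holds 3. At least 1 copy occurred in 11.2% of all 32851 promoter windows of that length, and windows with more copies were not counted. The letters are a description and not a site shown to be bound.

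Across the 24 livers, with group means removed, Abcg5 and Abcg8 varied together (Pearson r = 0.907, permutation p = 1e-05, adjusted p = 3e-05; Spearman rho = 0.877, permutation p = 1e-05, adjusted p = 3e-05 over the 3 relations computed, the smallest that 100000 permutations can give). Without the 2 mice farthest from the Abcg5 median, reference mouse 5 and HFepa mouse 7, r was 0.811 with group means recomputed (permutation p = 6e-05, n = 22). Within groups r was 0.910 in reference, 0.859 in HFoleic and 0.971 in HFepa mice, and within the 3 slides it was 0.961, 0.941 and 0.737. Among 19046 genes, Abcg8 was the one most correlated with Abcg5, also when any 1 reference mouse was left out (r = 0.855 without reference mouse 5). This was not so for the genes that followed. Over 24 mice the next 5 were Cyp2c55 (r = 0.849), 1190002F15Rik (r = 0.844), Cdc20 (r = 0.839), Dnm3os (r = 0.836) and Alcam (r = 0.836), and without reference mouse 5 their r fell to between 0.493 and 0.592 and their ranks to between 173 and 533.

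**Figure D1:**
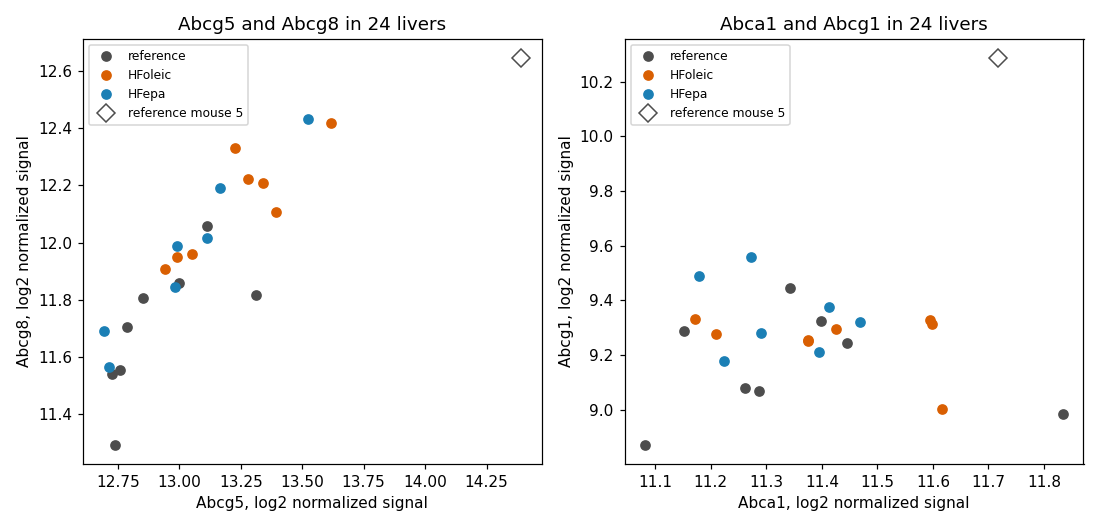
Log2 normalized signal of Abcg8 against Abcg5 (left) and of Abcg1 against Abca1 (right), 1 point per mouse, coloured by group. Abcg5 and Abcg8 rise along 1 line (r = 0.907 with group means removed), while Abca1 and Abcg1 do not (r = 0.261), and the open diamond of reference mouse 5 lies at the top of both panels.

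No difference between the groups was detected for Abca1, which starts HDL by lipidating apolipoprotein A-I. It lay at 11.08, 11.34 and 11.83 in reference, 11.17, 11.40 and 11.62 in HFoleic and 11.18, 11.29 and 11.47 in HFepa mice. No HFoleic or HFepa mouse was outside the reference range. The differences were 0.03 (95% interval -0.16 to 0.22) for HFoleic against reference, -0.07 (-0.27 to 0.12) for HFepa against reference and -0.10 (-0.30 to 0.10) for HFepa against HFoleic, with limma adjusted p between 0.781 and 0.901. A second, dimmer probe gave 0.06, -0.10 and -0.16.

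The Abca1 promoter is a classic place to look for an LXR element, which is why its sequence is shown. The 250 bases before the RefSeq start (GRCm38.p6, chr4:53159896-53160145, minus strand) are printed with the best match to the LXR-type direct repeat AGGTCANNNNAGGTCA in capitals.
Abca1: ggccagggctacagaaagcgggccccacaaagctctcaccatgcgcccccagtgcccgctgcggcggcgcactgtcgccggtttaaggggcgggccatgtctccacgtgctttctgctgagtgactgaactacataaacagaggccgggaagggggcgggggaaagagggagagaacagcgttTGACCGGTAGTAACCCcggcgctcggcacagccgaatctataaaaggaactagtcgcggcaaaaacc
The match is on the opposite strand of the gene and has 3 mismatches. A match at that tolerance occurred in 21.9% of all promoter windows, a match with at most 2 mismatches in 3.02% and a perfect one in 0.0152%. Of the 6 genes with a promoter entry (Abcg5, Abcg8, Abca1, Mylip, Lcat and Lpcat3), Lcat also had a match with 3 mismatches. The sterol-element letters TCACNCCAC, found in 1.24% of windows, were in none of the 6.

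Abcg1, which passes cholesterol on to HDL and is active in macrophages, lay at 8.87, 9.24 and 10.29 in reference, 9.00, 9.29 and 9.33 in HFoleic and 9.18, 9.32 and 9.56 in HFepa mice. The highest level was again reference mouse 5. The other 8 reference mice ran from 8.87 to 9.45. The difference from reference was -0.03 in HFoleic (limma adjusted p = 0.927) and 0.06 in HFepa mice (limma adjusted p = 0.907). Both were positive without reference mouse 5, at 0.094 (limma adjusted p = 0.526) and 0.182 (limma adjusted p = 0.348). The relation of Abca1 with Abcg1 across mice did not pass the permutation test (Pearson r = 0.261, permutation p = 0.365, adjusted p = 0.365; Spearman rho = 0.0165, permutation p = 0.943, adjusted p = 0.943; n = 24). Without the 2 mice farthest from the Abca1 median r was 0.0489 with group means recomputed. The Abcg5 to Abcg1 correlation of 0.705 was 0.120 without reference mouse 5.

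**Figure D2:**
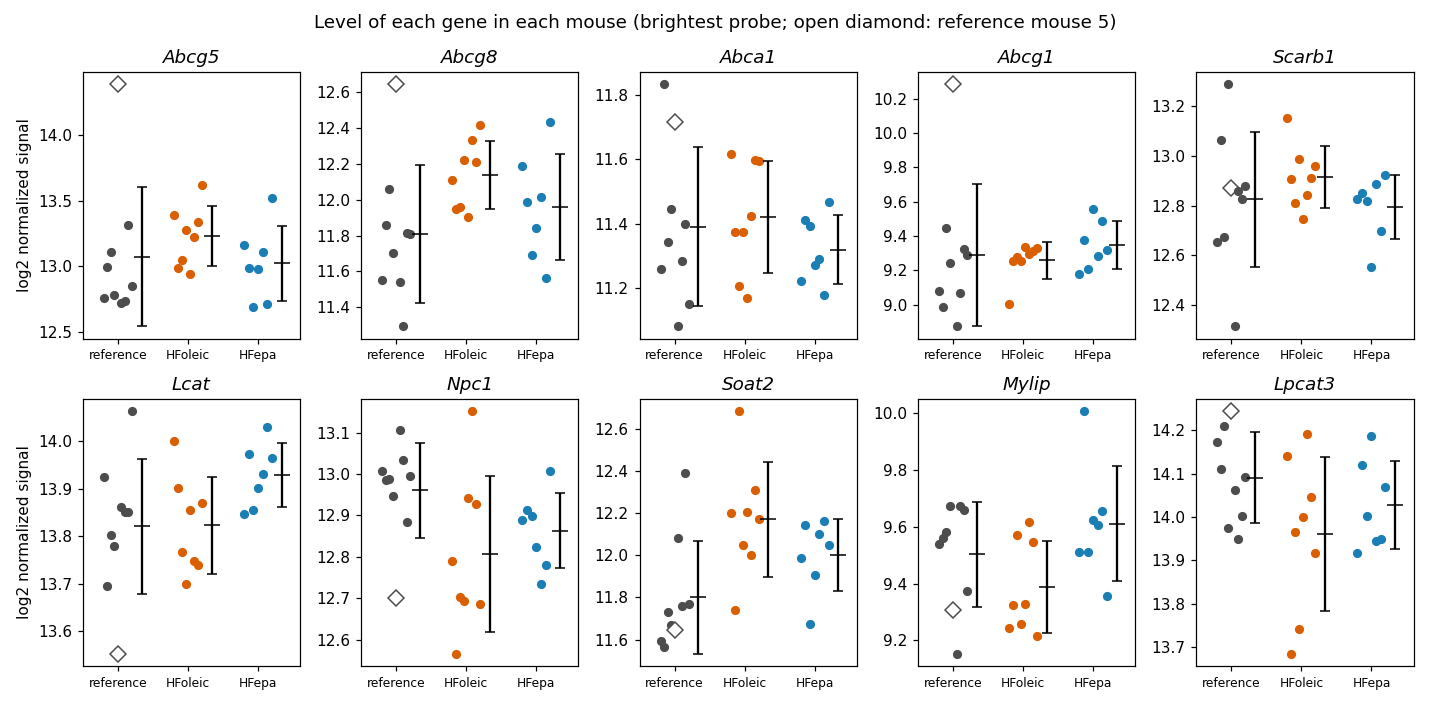
Log2 normalized signal of the 10 genes in each mouse, with group mean and SD beside the points (reference n = 9, HFoleic n = 8, HFepa n = 7). The groups overlap in every panel, and the open diamond of reference mouse 5 lies highest of its group for Abcg5 (14.39), Abcg8 (12.64) and Abcg1 (10.29).

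No difference was detected in genes of HDL uptake and maturation. Scarb1 encodes the receptor that takes cholesteryl ester from HDL into hepatocytes. Its levels were 12.31, 12.86 and 13.29 in reference, 12.75, 12.91 and 13.15 in HFoleic and 12.55, 12.83 and 12.92 in HFepa mice, so that the reference range enclosed both others. The differences were 0.09 (95% interval -0.10 to 0.28), -0.03 (-0.23 to 0.17) and -0.12 (-0.32 to 0.08) in the order of comparisons used above, and a probe for another transcript gave 0.19, 0.10 and -0.09. None passed the test. Lcat encodes the plasma enzyme that esterifies HDL cholesterol. It lay at 13.55, 13.85 and 14.06 in reference, 13.70, 13.81 and 14.00 in HFoleic and 13.85, 13.93 and 14.03 in HFepa mice. HFoleic and reference means differed by 0.00 (95% interval -0.12 to 0.12). All 7 HFepa mice were above the reference mean and above the HFoleic mean. The HFepa mean was higher by 0.11 in both cases, which did not pass (limma adjusted p = 0.465 and 0.598). Without reference mouse 5 its difference from reference was 0.075 (limma adjusted p = 0.63).

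Inside the cell, Soat2 held the only probe that passed the test. SOAT2 esterifies cholesterol with fatty acids for storage and for assembly into lipoproteins. Its levels were 11.56, 11.73 and 12.39 in reference, 11.74, 12.19 and 12.68 in HFoleic and 11.67, 12.05 and 12.16 in HFepa mice. The groups overlapped, with 7 of 8 HFoleic mice above the reference mean and 1 of 8 above every reference mouse. The HFoleic mean was higher by 0.37 (SE 0.115, 1.29-fold, 95% interval 0.13 to 0.61), at a limma adjusted p of 0.04997, just under the threshold of 0.05. The second Soat2 probe read 0.39 with all 8 HFoleic mice above the reference mean, and missed the threshold (limma adjusted p = 0.0628). Within the 3 slides the difference was 0.551, 0.374 and 0.189, and with slide as a block it was 0.374 and missed the threshold (limma adjusted p = 0.0552). It also missed it with the 2 groups alone (limma adjusted p = 0.0865) and with the methods' t-test (adjusted p = 0.117, two-sided). The call was lost when any 1 of 19 of the 24 mice was left out. Over all 24 such runs the limma adjusted p ran from 0.00637 to 0.104 and the difference from 0.296 to 0.443. Without reference mouse 5 the difference was 0.350 and missed the threshold (limma adjusted p = 0.0757). HFepa mice were 0.20 above reference (95% interval -0.04 to 0.45; limma adjusted p = 0.487) and 0.17 below HFoleic mice (95% interval of the difference -0.42 to 0.09; limma adjusted p = 0.686).

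NPC1 exports cholesterol from lysosomes. Its gene lay at 12.70, 12.99 and 13.11 in reference, 12.57, 12.75 and 13.15 in HFoleic and 12.73, 12.89 and 13.01 in HFepa mice. HFoleic mice were on average 0.15 lower than reference (95% interval -0.30 to -0.01), with 7 of 8 below the reference mean, which did not pass after adjustment (unadjusted p = 0.0368; limma adjusted p = 0.199). Without reference mouse 5 this difference was -0.187 and did not pass (limma unadjusted p = 0.00992, adjusted p = 0.0919). With all mice, the 2 dimmer tested probes, annotated under Ensembl transcript accessions, read -0.04 and -0.09 in HFoleic against reference. In HFepa against reference they read 0.21 and 0.23, opposite in sign to the brightest probe at -0.10, so the probes of this gene disagreed there.

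Mylip, the ubiquitin ligase gene, was higher on average in HFepa than in HFoleic mice. Its levels were 9.15, 9.56 and 9.67 in reference, 9.21, 9.33 and 9.62 in HFoleic and 9.36, 9.61 and 10.01 in HFepa mice, and 3 of 7 HFepa mice were above every HFoleic mouse. HFepa exceeded HFoleic by 0.22 (SE 0.094, 95% interval 0.03 to 0.42, 1.17-fold), which did not pass (unadjusted p = 0.0253; limma adjusted p = 0.431). Neither group differed detectably from reference, at -0.11 for HFoleic (limma adjusted p = 0.498) and 0.11 for HFepa mice (limma adjusted p = 0.669). Lpcat3, which inserts polyunsaturated acyl chains into phospholipids, lay at 13.95, 14.09 and 14.24 in reference, 13.68, 13.98 and 14.19 in HFoleic and 13.92, 14.00 and 14.19 in HFepa mice. Its HFoleic difference of -0.13 (limma adjusted p = 0.270) was matched by -0.11 on its second probe (limma adjusted p = 0.292), and 3 of 8 HFoleic mice were below every reference mouse on the brightest probe.

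**Figure D3:**
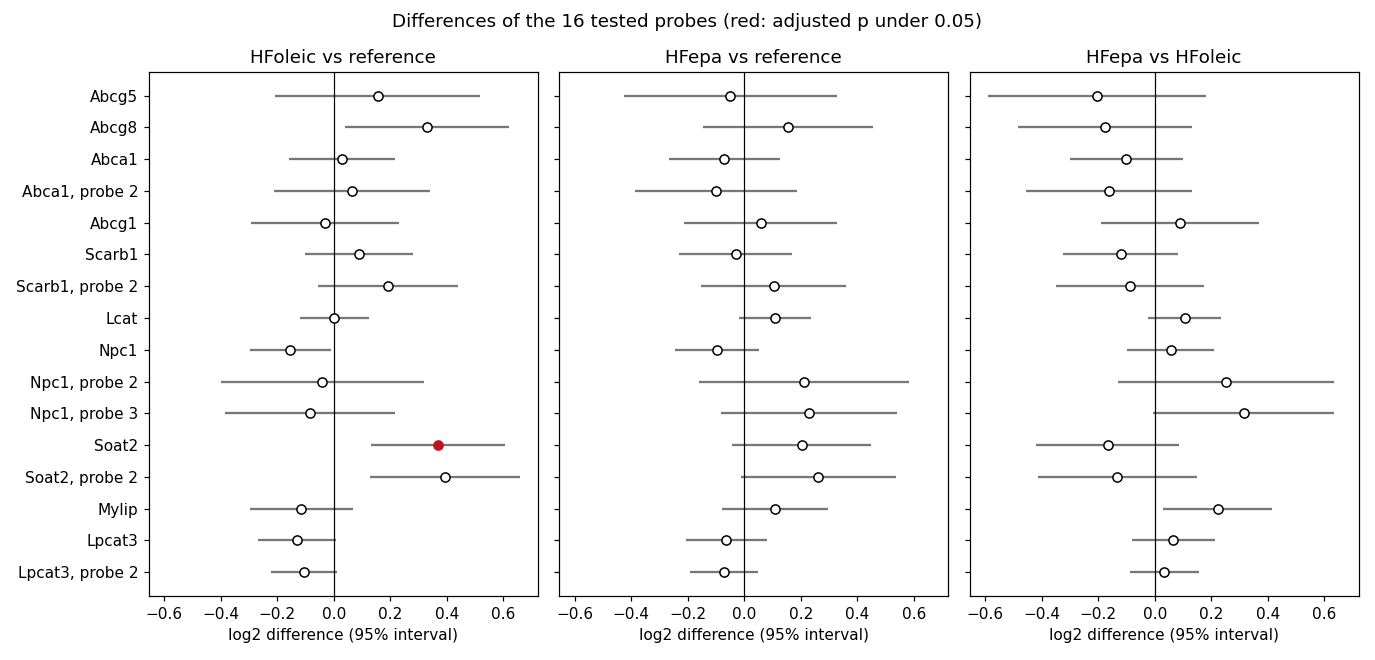
Log2 difference with its 95% interval for the 16 tested probes in the 3 comparisons, brightest probe of a gene first. The brightest Soat2 probe in HFoleic against reference (0.37) is the only one past adjusted p under 0.05, drawn in red, and most intervals cross 0.

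Counted together, 1 of 16 probes passed in HFoleic against reference, where 7.23% of all tested probes did (2170 of 30003, with 4.05% higher and 3.19% lower). In HFepa against reference 0 of 16 passed in limma, where 0.393% of all probes did (118 of 30003), and in HFepa against HFoleic 0 of 16 passed, where 0% did (0 of 30003). At unadjusted p under 0.05, 3 of 10 genes differed in HFoleic against reference (21.1% of all tested probes), 0 in HFepa against reference (13.5%) and 1 in HFepa against HFoleic (9.7%). The methods' t-test with Benjamini-Hochberg adjustment called none of the 16 probes in any comparison. The median difference over the 10 genes was 0.0157, 0.0130 and -0.0221 in the 3 comparisons, where the medians over all tested probes were -0.000723, 0.00474 and 0.00480. HFoleic and HFepa were compared with the same 9 reference mice.

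None of the 10 tested receptor and cofactor genes passed in any comparison. The largest differences of this list in 2 comparisons were those of Nr0b2. It differed by 0.81 in HFoleic against reference (limma unadjusted p = 0.00499, adjusted p = 0.0607). Between HFepa and HFoleic it differed by -0.94 (limma unadjusted p = 0.00267, adjusted p = 0.250), with all 7 HFepa mice below the HFoleic mean. In HFepa against reference it differed by -0.13 (limma adjusted p = 0.899). The brightest probe of Nr1h3, which encodes LXR alpha, differed by 0.10 in HFoleic (limma adjusted p = 0.256) and -0.05 in HFepa mice (limma adjusted p = 0.706), and by -0.15 between HFepa and HFoleic (unadjusted p = 0.00738; limma adjusted p = 0.320), with all 7 HFepa mice below the HFoleic mean. A second Nr1h3 probe on the same transcript did not show this, at -0.02 in HFoleic against reference and -0.01 between HFepa and HFoleic, with 3 of 7 mice below the HFoleic mean. Nr1h2 (LXR beta) differed from reference by -0.09 and 0.02, and Rxra, their partner, by 0.13 (limma adjusted p = 0.109) and 0.05. Among 8 tested enzymes that make or clear oxysterols and other sterol ligands, 2 rose in HFoleic mice, where 7.23% of all tested probes were called. Hsd3b7, a bile acid synthesis enzyme, rose by 0.33 (SE 0.065, limma adjusted p = 0.00344). Ebp, a late step of cholesterol synthesis, rose by 0.26 (SE 0.055, limma adjusted p = 0.00529). A dimmer Ebp probe read 0.19 and did not pass (limma adjusted p = 0.179). Cyp27a1 and Cyp7b1, enzymes of the acidic bile acid pathway, differed by -0.24 (limma adjusted p = 0.408) and -0.05 (limma adjusted p = 0.957).

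Of 15 other genes known as LXR targets, 2 rose and 1 fell in HFoleic mice, where 7.23% of all tested probes were called. Srebf1, the master gene of fatty acid synthesis, rose by 1.02 (SE 0.216, limma adjusted p = 0.00552) and Mlxipl, which encodes the glucose sensor ChREBP, by 0.55 (SE 0.096, limma adjusted p = 0.00163). Cyp7a1, the rate-limiting enzyme of bile acid synthesis, fell by 1.61 (SE 0.367, limma adjusted p = 0.00821). A dimmer Cyp7a1 probe read -0.58 and did not pass (limma adjusted p = 0.125), with 6 of 8 HFoleic mice below the reference mean. On the brightest probe of each of the 3 genes, all 8 HFoleic mice lay on the same side of the reference mean. The brightest Mlxipl probe also passed in HFepa against reference, at 0.44 (limma adjusted p = 0.0458), but not without reference mouse 5. The probes of Mlxipl disagreed. A dimmer one on the same transcript read -0.05 in HFoleic (limma adjusted p = 0.821) and 0.03 in HFepa mice (limma adjusted p = 0.924). Another dimmer one, annotated under another transcript accession, read 0.31 in HFoleic (limma adjusted p = 0.114) and 0.45 in HFepa mice (limma adjusted p = 0.0881). Pltp (-0.16) and Apoe (-0.00), a phospholipid transfer protein and an apolipoprotein, did not pass in HFoleic mice.

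Of the sterol-responsive genes, Insig1, which encodes a sterol-sensing partner of the SREBPs, rose in HFoleic mice by 1.47 (limma adjusted p = 0.000401), Vldlr, a lipoprotein receptor gene, by 0.83 (limma adjusted p = 0.0338) and Sqle, a rate-limiting step of sterol synthesis, by 1.81 (limma adjusted p = 0.0168). These 3 genes also passed without reference mouse 5. The probes of Srebf2 itself disagreed, since the brightest differed by 0.05 (limma adjusted p = 0.816) and a dimmer one by 0.42 (limma adjusted p = 0.0486). That dimmer probe, annotated under another transcript accession, had 7 of 8 HFoleic mice above the reference mean. Across mice the relation of Abcg8 with Sqle did not pass the permutation test (Pearson r = -0.166, permutation p = 0.336, adjusted p = 0.365; Spearman rho = -0.0183, permutation p = 0.934, adjusted p = 0.943; n = 24; r = -0.096 without the 2 mice farthest from the Abcg8 median, with group means recomputed). Within the slides that r was -0.152, -0.213 and -0.477.

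Genes around the storage step beside Soat2 differed in direction. The genes called in HFoleic mice below stand beside 7.23% of all tested probes called in HFoleic against reference. Of 14 tested sterol transport and storage genes, Stard4, a cytosolic sterol carrier, rose in HFoleic mice by 1.28 (limma adjusted p = 0.000732) and Nceh1, a cholesteryl ester hydrolase, fell by 0.52 (limma adjusted p = 0.0294). In HFepa against reference the brightest Stard4 probe differed by 0.88 and missed the threshold (limma adjusted p = 0.0556), while a dimmer one passed at 0.65 (limma adjusted p = 0.0245), with all 7 HFepa mice above the reference mean on both. Soat1, the other sterol esterifying enzyme, differed by -0.18 (limma adjusted p = 0.677) and Npc2, the lysosomal partner of NPC1, by 0.01 (limma adjusted p = 0.964). Without reference mouse 5, Stard5 and Lamp2 passed as well, giving 2 genes in each direction. With all mice, dimmer probes of Osbp (0.39, limma adjusted p = 0.0259) and Lamp2 (-0.37, limma adjusted p = 0.0353) passed in HFoleic mice where the brightest did not, and the brightest Lamp2 probe had the opposite sign (0.14). Of 11 HDL and bile genes, the bile salt pump gene Abcb11 rose by 0.49 (limma adjusted p = 0.00529), joined by Pdzk1 without that mouse, and Abcb4, which moves phosphatidylcholine into bile, differed by -0.18 (limma adjusted p = 0.285). None of 7 other lysophospholipid acyltransferase genes passed. In HFepa against HFoleic no gene of any of these lists passed in limma, and neither did any other probe (0 of 30003). At unadjusted p under 0.05 the count over all probes was 2910.

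**Figure D4:**
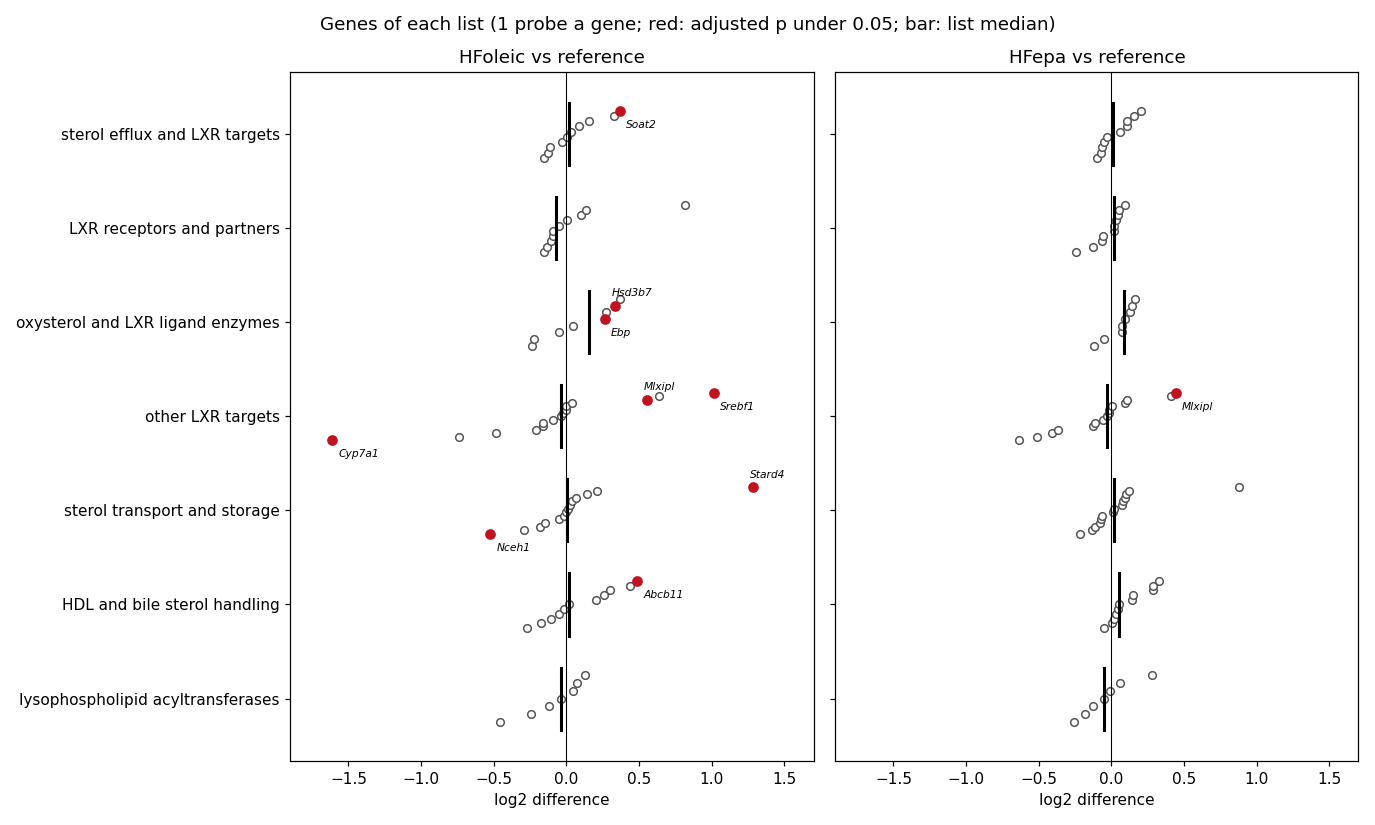
Log2 difference from reference in HFoleic (left) and HFepa (right) mice for each tested gene of 7 lists, 1 point per gene, with a bar at the list median. In HFoleic mice the called genes, in red, spread from Cyp7a1 (-1.61) to Stard4 (1.28). The 10 genes described here, labelled sterol efflux and LXR targets, lie between -0.15 and 0.37 there.

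Among the 45 pairs of the 10 genes, 6 had r above 0.5 over 24 mice and 4 without reference mouse 5. Those 4 were Abcg5 with Abcg8 (0.855), Abca1 with Scarb1 (0.642), Npc1 with Lpcat3 (0.633) and Abcg5 with Abca1 (0.516). The correlations of Lcat with Abcg5, Abcg8, Abca1 and Abcg1, between -0.472 and -0.444 over 24 mice, lay between -0.294 and 0.037 without it. These are descriptions over mice that share slides and labelling.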

How the data were processed

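Total RNA of 24 livers was labelled with Cy3 and hybridised to Agilent SurePrint G3 Mouse arrays, 8 to a slide on 3 slides. Per the file headers, spot intensity was extracted by Feature Extraction 10.10.1.1 on probes placed on mm9; the authors filtered the median signal and deposited log2, quantile-normalized values of 32176 probes, with a filter not given in the sources used here. Here, log2 median intensity from the deposited scanner files was used, outlier spots were dropped and spots of a probe averaged. A probe was kept if 75% or more of a group's arrays read it well above background, and kept probes were quantile normalized. A group-means model of all arrays was fitted with limma 3.58.1 (R 4.3.3), with Benjamini-Hochberg adjustment over all tested probes and a call at adjusted p under 0.05. Relations across mice used permutations within groups, two-sided. Genes named beyond the 10 were a preset short list, list genes that were called, and Nr0b2, added for the size of its differences. Members and lists were chosen with earlier results of these data known. Promoters came from RefSeq (GRCm38.p6), which had entries for 6 of 10 genes. Some genes of the lists are not reported here. Scripts were tested on simulated data. Alternatives covered background correction, scaling, the deposited table, filters, slide, slide row, replicate block, test and leaving out each mouse.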

Additional observations from a re-analysis of the deposited data

Results flagged for a closer look

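Within each group, the highest and lowest mouse of the 10 genes were set against the nearest other mouse by Dixon's gap test, which flags about 1 in 20 groups by chance. Of 30 gene and group pairs, 3 passed the 95% critical value. Abcg5 in reference mouse 5 was 14.39, far above the next reference mouse at 13.31. Abcg1 in the same mouse was 10.29, with the next at 9.45. Abcg1 in HFoleic mouse 1 was 9.00, below the next HFoleic mouse at 9.25.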

How the results depend on the processing

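For HFoleic against reference, the count of 1 called probe rose to 2, both of Soat2, with processed signal scaled to the 75th percentile. It was 0 with the deposited table, with no filter on dim probes, with slide as a block, with the 2 groups alone and with the methods' t-test. With a replicate block it was also 0. Leaving out 1 mouse at a time gave 0 to 2. It was 1 with normexp, with the filter on all arrays and with slide row as a block. Same-numbered mice did not deviate together (r from -0.302 to 0.349 over 22 pairs), so the paired result is not read further. The counts of 0 in both HFepa comparisons held in every alternative run. Differences near 0 changed sign in some settings without passing the test. In HFoleic against reference, Abca1 was -0.00053 with a replicate block and -0.00926 to 0.0844 leaving out 1 mouse, Abcg1 was 0.0050 with processed signal and -0.0823 to 0.0941 leaving out 1 mouse, and Lcat was -0.0316 to 0.0325 leaving out 1 mouse. In HFepa against reference, the mean over all probes gave Npc1 0.114 and Scarb1 0.0360. Leaving out 1 mouse gave Scarb1 -0.0947 to 0.0267 and Abcg5 -0.133 to 0.115. Abcg5 with Abcg8 stayed past the test in every alternative run, at 0.855 to 0.927. Abca1 with Abcg1 was -0.144 to 0.487 leaving out 1 mouse, and Abcg8 with Sqle was 0.153 with group means kept. The cause of these changes was not tested. Signal over background did not limit the 16 tested probes, which were well above it on all 24 arrays.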
